A study of Rattus norvegicus with 8 samples.

Results

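The genes of cholesterol and fatty acid synthesis were examined in primary cultures of rat semicircular canal duct (SCCD) epithelium, the sheet of cells that lines the canals of the vestibular labyrinth. The members were 32 named genes, 22 of the sterol branch and 10 of the fatty acid branch, found by the gene symbol of each probe set with 1 probe set per gene, the one with the strongest mean signal. Of these, 30 had a probe set, out of 10410 named genes on the array, and the 30 genes had 43 probe sets. Hmgcs1 and Stard4 had no probe set under their name and were not analysed here. The cultures came from the canals of neonatal (3 to 5 days) Wistar rats and were grown on permeable supports. The first group was treated with 100 nM dexamethasone, a synthetic glucocorticoid (n = 4 arrays), and the control group was left untreated (n = 4 arrays). The sources used here do not give the time of exposure for the arrays, nor whether the samples of a group came from separate dissections, so p-values here reflect only how far these samples scatter, which may be technical. The study concerned the regulation of sodium absorption by this epithelium, on which glucocorticoids were known to act, and the arrays are read here for the transcripts of lipid synthesis.

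Cholesterol is built from acetyl-CoA by way of mevalonate, isoprenoid units, squalene and lanosterol, and fatty acids are built from acetyl-CoA by way of malonyl-CoA. Both branches are under the SREBP transcription factors, which are made as precursors in the endoplasmic reticulum. The escort protein SCAP carries the precursors to the Golgi for cleavage when sterols are low, and the INSIG proteins hold SCAP back when sterols are plentiful. SREBP-2 acts mainly on the sterol branch and SREBP-1c on the fatty acid branch, and both act beside the factor NF-Y, which binds the CCAAT box. Insig1 is itself a target of the SREBPs, so its transcript is widely read as a gauge of their activity.

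Of the members, 4 had an unadjusted p under 0.05 in the comparison below, and the 250 bases before their transcription start are shown because the known regulators of both branches bind there. They were taken from RefSeq (rat build GRCr8), which had such a window for 25 of the 32 genes, with 2 windows for Srebf1. The sequences run 5′ to 3′ towards the start, and the capitals mark the CCAAT box on either strand (CCAAT or ATTGG). The windows lie at chr4:8057770-8058019 on the minus strand for Insig1, at chr20:12118231-12118480 on the minus strand for Lss, at chr16:29746863-29747112 on the plus strand for Msmo1 and at chr8:96540245-96540494 on the minus strand for Me1.
Insig1: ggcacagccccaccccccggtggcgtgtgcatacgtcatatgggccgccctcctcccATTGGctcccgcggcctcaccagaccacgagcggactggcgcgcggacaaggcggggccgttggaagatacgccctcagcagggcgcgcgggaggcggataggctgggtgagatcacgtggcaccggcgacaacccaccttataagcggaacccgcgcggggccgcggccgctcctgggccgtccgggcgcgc
Lss: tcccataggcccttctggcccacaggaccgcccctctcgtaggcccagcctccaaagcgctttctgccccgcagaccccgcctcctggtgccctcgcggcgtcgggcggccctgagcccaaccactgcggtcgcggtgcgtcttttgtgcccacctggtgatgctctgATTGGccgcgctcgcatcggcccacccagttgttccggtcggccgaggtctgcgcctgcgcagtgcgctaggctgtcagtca
Msmo1: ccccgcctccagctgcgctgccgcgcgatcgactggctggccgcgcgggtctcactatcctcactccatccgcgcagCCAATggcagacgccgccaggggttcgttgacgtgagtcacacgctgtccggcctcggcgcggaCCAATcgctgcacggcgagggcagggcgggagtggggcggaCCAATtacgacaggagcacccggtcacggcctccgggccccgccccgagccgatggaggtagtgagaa
Me1: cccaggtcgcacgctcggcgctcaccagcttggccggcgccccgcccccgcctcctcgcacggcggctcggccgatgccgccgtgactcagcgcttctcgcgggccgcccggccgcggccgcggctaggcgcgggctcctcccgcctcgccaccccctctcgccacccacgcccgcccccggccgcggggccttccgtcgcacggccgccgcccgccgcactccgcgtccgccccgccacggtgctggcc
The sterol gene windows held 1 box in Insig1, 193 bases before the start, 1 in Lss, at 82 bases, and 3 in Msmo1, at 173, 109 and 68 bases, while the window of Me1 held none. The CCAAT box was found in 14 of 18 windows of the sterol branch and 5 of 8 of the fatty acid branch, against 34% of all 33469 rat windows of this length. The sterol regulatory element core TCACNCCAC was found on either strand in 0 of the 26 member windows, against 0.974% of all windows. The palindromic consensus of the glucocorticoid response element was found in 0 of 26, against 0.012% of all windows. The motifs were counted apart, and the absence of these exact letters says nothing on whether the factors bind.

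Known targets of the glucocorticoid receptor were higher with dexamethasone, as the labels have it. Sgk1, a kinase that keeps sodium channels in the membrane, had signals of 2789 to 3736 in dexamethasone cultures against 272 to 419 in controls (limma, adjusted p = 1.09e-06), and of the 9 glucocorticoid targets tested 8 rose and 0 fell. The epithelial markers Krt8, Krt18, Krt19, Cdh1, Epcam, Cldn4 and Cldn7 were above the level of silent genes on all 8 arrays, and of the 11 genes of that list Scnn1a and Scnn1g, subunits of the epithelial sodium channel, rose and Krt18 fell. Atp1b1 was also above that level on all 8 arrays, Scnn1b on 7, Scnn1g on 5 and Scnn1a on 4, all of these 4 with dexamethasone. Silent genes were 50 genes particular to unrelated tissues, and the level is the 95th percentile of their signals, at 121 to 201 over the arrays. Of the adipocyte markers, Lep, Plin1 and Cfd were above it on no array, Lpl on 2 and Pck1 on 3. Of the Schwann cell and myelin markers, Mbp and Mag were above it on no array, Sox10 on 7 and S100b and Cnp on all 8. Cnp was lower on every dexamethasone array than on every control (log2 ratio -0.38, limma adjusted p = 0.125), as were 5.46% of all probe sets tested. At its weaker probe set Cnp overlapped between the groups (log2 ratio 0.024, limma adjusted p = 0.973). The summed signal of the adipocyte list overlapped between the groups (234 to 537 with dexamethasone, 276 to 517 in control). So did those of the fibroblast list (5300 to 8304 with dexamethasone, 6720 to 8500 in control), the macrophage list (1061 to 4324 with dexamethasone, 789 to 1355 in control) and the Schwann cell list (2471 to 3577 with dexamethasone, 3252 to 3822 in control). Among the macrophage markers, Lyz2 ranged from 48.8 to 3415 with dexamethasone and from 88.5 to 433 in control. Cd14 was higher on every dexamethasone array than on every control (log2 ratio 0.96, limma adjusted p = 0.0809), as were 5.57% of all probe sets tested. Csf1r and Aif1 overlapped between the groups, and Cd68, Ptprc and Itgam were above the silent level on no array. The melanocyte list stood at 167 to 180 with dexamethasone and 168 to 217 in control. Of these 5 lists, 0 of 17 tested genes passed the test. With replicates 1 and 2 and replicates 3 and 4 as blocks, only Col1a2 of the fibroblast list passed (log2 ratio -0.58, limma adjusted p = 0.0139). In that fit 2.26% of all probe sets were called lower. The endothelial list did not overlap (2745 to 3285 with dexamethasone, 945 to 1195 in control), with Kdr and Flt1, receptors of vascular endothelial growth factor, moving in opposite directions. Kdr rose (log2 ratio of dexamethasone over control 2.00, limma adjusted p = 2.98e-05) and Flt1, above the silent level on 3 arrays, fell (-1.96, limma adjusted p = 0.02002), while Pecam1, Tie1, Vwf and Eng were above the silent level on no array. In bulk RNA, fewer cells of a type and less RNA per cell cannot be told apart. The deposited signals had a trimmed mean at the target of 500 on replicates 1 and 2 of both groups, but of 202 to 336 on replicates 3 and 4, and every array was rescaled to 500. The 3' to 5' signal ratio of beta-actin, a sign of RNA integrity, was 6.17 to 8.07 with dexamethasone and 8.10 to 13.7 in control, with control replicate 3 the highest. Every dexamethasone array was thus below every control in this ratio, by a small margin. The same ratio for GAPDH overlapped between the groups, at 2.14 to 3.18 with dexamethasone and 2.10 to 3.79 in control.

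The genes of lipid synthesis were expressed in these cultures, and none of them passed the test for a difference with dexamethasone. Of the 30 members, all of which passed the filter on low signals (a mean signal of at least 100), 0 had an adjusted p under 0.05 (limma), while 279 of the 10368 probe sets tested did (2.69%, with 1.88% or 195 higher and 0.81% or 84 lower; on the signals as deposited, 34 higher and 2 lower). At an unadjusted p under 0.05 there were 3 higher members, Insig1, Lss and Msmo1, and 1 lower, Me1, that is 4 of 30, against 16.1% of all probe sets (7.96% higher and 8.16% lower). The members were above the silent level on all 8 arrays in 27 of 30 cases, the others being Mvd, on 6 arrays, and Nsdhl and Hsd17b7, on 7 each. The sterol branch had a median log2 ratio of dexamethasone over control of 0.16, with 15 of 20 members above 0, against -0.023 and 45.9% for all probe sets tested. The fatty acid branch had a median of -0.046, with 4 of 10 members above 0, and was above 0 on the signals as deposited (0.12), where the median of all probe sets was 0.14. A fold of 1.3 (0.38 on the log2 scale), the limit the study's methods set, was reached by Insig1 and Idi1 upwards and by Me1 downwards, while 7.91% of all probe sets reached it upwards and 6.98% downwards. With the log2 beta-actin ratio as a covariate, the median was 0.12 for the sterol branch and 0.025 for the fatty acid branch, and 0 of the 30 passed the test (0.627% of all probe sets did). The groups did not overlap in that ratio, so fits with this covariate, here and below, cannot fully separate RNA integrity from the treatment.

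**Figure D1:**
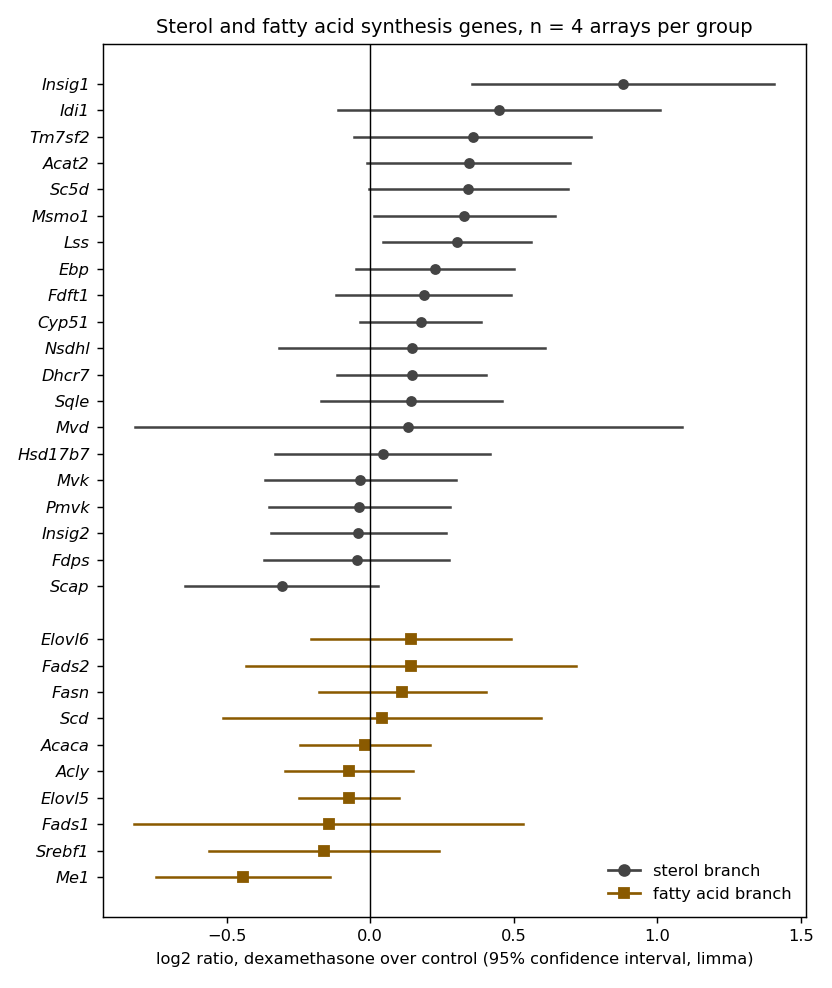
Log2 ratio (dexamethasone over control, 4 arrays each) of the 20 sterol branch members (circles) and the 10 fatty acid branch members (squares) at their strongest probe set, with the 95% interval from limma (lines), ordered by value within each branch. Insig1 lies highest at 0.88 and Me1 lowest at -0.44.

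Insig1, which retains SCAP and the SREBP precursors in the endoplasmic reticulum, showed the largest difference of the 30 genes. Its signal was 675, 818, 533 and 900 on dexamethasone replicates 1 to 4, and 406, 634.5, 292 and 306 on control replicates 1 to 4. Of the dexamethasone cultures 3 of 4 were above every control, and replicate 3 was below control replicate 2. The mean signal was 732 ± 162 with dexamethasone and 409.7 ± 158 in control (SD, n = 4 each). The log2 ratio of Insig1 was 0.88 (SE 0.24, 95% interval 0.35 to 1.41), and it did not pass the test across all probe sets (limma adjusted p = 0.0822). The exact permutation test gave a two-sided p = 0.0571, where the smallest that 4 arrays against 4 allow is 0.0286. Within replicates 1 and 2 the value was 0.55 and within replicates 3 and 4 it was 1.21. With these 2 sets of arrays as a block, Insig1 passed the test (limma adjusted p = 0.0342), as did 5.57% of all probe sets (3.32% higher and 2.26% lower). It also passed without control replicate 2 (log2 ratio 1.11, adjusted p = 0.0172), the control with the highest Insig1 signal, whereas with the beta-actin ratio as a covariate the value was 0.30 (adjusted p = 0.771). With the block and that ratio together Insig1 was at 0.39 and did not pass (limma adjusted p = 0.44).

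The remaining regulators did not pass the test in either direction. Insig2, the other INSIG protein, had signals of 676, 590.3, 755 and 798 with dexamethasone and 847, 627, 657 and 776 in control. The groups overlapped, at a log2 ratio of -0.043 (95% interval -0.35 to 0.26, limma adjusted p = 0.920). Scap, the escort of the SREBPs, had signals of 389.8, 524, 464 and 370.4 with dexamethasone and 654, 506, 456 and 547 in control. Here 2 of the dexamethasone cultures were below every control, and the log2 ratio was -0.31 (95% interval -0.64 to 0.026, limma adjusted p = 0.356), with -0.35 and -0.27 within the 2 sets of arrays. Srebf1, which encodes SREBP-1, had signals of 963, 728, 550.3 and 657 with dexamethasone and 718, 654, 1019 and 827 in control. Its groups overlapped, with a log2 ratio of -0.16 (95% interval -0.56 to 0.24, limma adjusted p = 0.728). The Srebf1 difference had opposite signs in the 2 sets of arrays, 0.29 in replicates 1 and 2 and -0.61 in replicates 3 and 4. That change of sign had an unadjusted p = 0.00575 for the interaction in limma but did not pass over all probe sets (adjusted p = 0.787). Over the 30 members, 3 had an interaction p under 0.05, against 5.66% of all probe sets. On the signals as deposited, Insig2 and Srebf1 were at 0.12 and 0.0027, where the median of all probe sets was 0.14.

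**Figure D2:**
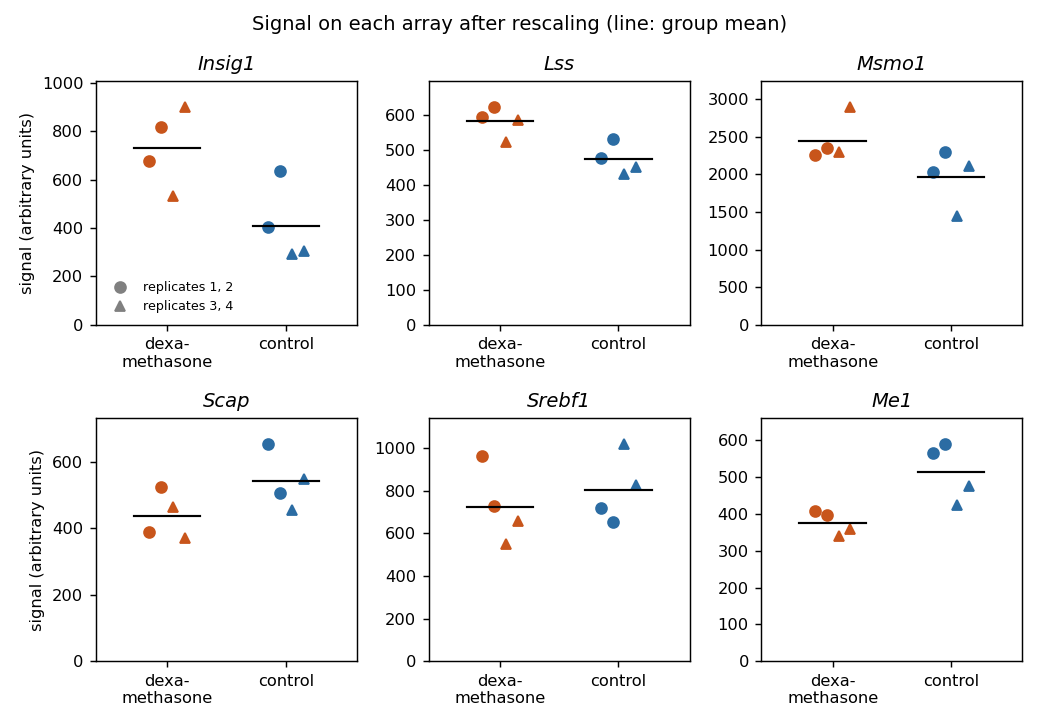
Signal on each array in arbitrary units after rescaling, on linear axes from 0, for 6 members, with dexamethasone on the left and control on the right of each panel. Circles are replicates 1 and 2, triangles replicates 3 and 4, and lines the group means. Of these 6 genes, only Me1 has groups that do not overlap.

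The early steps of the sterol branch, from acetyl-CoA to squalene, held the second largest value of the sterol branch. Acat2, the thiolase that joins acetyl-CoA units for this pathway, had signals of 1282, 1439, 1002 and 1521 with dexamethasone and 938, 1292, 1066 and 841 in control. Here 2 of the dexamethasone cultures were above every control, and the log2 ratio was 0.34 (SE 0.16, limma adjusted p = 0.329), or 0.18 with the beta-actin ratio as a covariate. Idi1, which isomerizes the isoprenoid unit, had signals of 823, 949, 721 and 1159 with dexamethasone and 722, 1100, 409 and 579 in control. Control replicate 2 stood above all but 1 of the dexamethasone arrays, and the log2 ratio of Idi1 was 0.45 (SE 0.26, 95% interval -0.11 to 1.01, limma adjusted p = 0.440), made up of -0.013 in replicates 1 and 2 and 0.91 in replicates 3 and 4. That difference between the sets had an unadjusted p = 0.0348 and an adjusted p = 0.787 for the interaction (limma). Without control replicate 3 the Idi1 value was 0.22 and without control replicate 2 it was 0.70, and it was -0.28 with the beta-actin ratio as a covariate. The kinases of mevalonate, Mvk and Pmvk, and Fdps, which makes farnesyl diphosphate, were close to 0 at -0.034, -0.038 and -0.048, with adjusted p of 0.943, 0.932 and 0.914 (limma). Fdft1, squalene synthase and so the first enzyme committed to sterols, had a log2 ratio of 0.19 (limma adjusted p = 0.565). Mvd, the decarboxylase of the pathway, had the widest interval of all members (-0.82 to 1.08), with a signal of 52.2 on control replicate 3 against 192 to 237 on the other controls and 106 to 236 with dexamethasone.

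The late steps, from squalene to cholesterol, all had log2 ratios above 0, and none passed the test. Sqle, squalene epoxidase and a control point of the branch, had signals of 1261, 1279, 1509 and 1750 with dexamethasone and 1052, 1267, 1418 and 1515 in control. Within each group Sqle was higher on replicates 3 and 4 than on replicates 1 and 2, and its log2 ratio was 0.14 (95% interval -0.17 to 0.46, limma adjusted p = 0.685), or 0.041 without control replicate 1, 0.048 without dexamethasone replicate 4 and 0.22 without control replicate 4. Lss, the cyclase that makes lanosterol, had signals of 595, 622, 523 and 585 with dexamethasone and 477, 529.6, 431 and 452 in control. Again 3 of the 4 dexamethasone cultures were above every control, at a log2 ratio of 0.30 (SE 0.12, 95% interval 0.044 to 0.56, limma adjusted p = 0.233). Within the 2 sets of arrays the Lss value was 0.28 and 0.33, and with the beta-actin ratio as a covariate it was 0.16 (limma adjusted p = 0.826). Cyp51, the demethylase of lanosterol, had signals of 2665, 2570, 2451 and 2799 with dexamethasone and 2213, 2536, 2476 and 2080 in control. Its probe set is of a type that may match more than 1 transcript, 3 dexamethasone arrays were above every control, and the log2 ratio was 0.18 (limma adjusted p = 0.418). Tm7sf2, a sterol reductase, had signals of 541, 609.9, 348 and 553 with dexamethasone and 366, 444, 459.5 and 317 in control. Dexamethasone replicate 3 was within the range of the controls and the rest above it, giving a log2 ratio of 0.36 (SE 0.19, limma adjusted p = 0.396).

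Of the enzymes that trim and reshape the sterol ring, Msmo1, Sc5d and Ebp had their highest signal on dexamethasone replicate 4. Msmo1, the methyl sterol monooxygenase, had signals of 2262, 2347, 2302 and 2896 with dexamethasone and 2028, 2299, 1451 and 2107 in control. Here 3 dexamethasone arrays were above every control, and the log2 ratio was 0.33 (SE 0.14, 95% interval 0.013 to 0.64, limma adjusted p = 0.288). Without control replicate 3 it was 0.19, and with the beta-actin ratio as a covariate it was -0.044. Sc5d, the desaturase of the sterol ring, had signals of 566, 587, 690.3 and 887 with dexamethasone and 501, 596, 455 and 582 in control. Dexamethasone replicates 1 and 2 lay within the controls and replicates 3 and 4 above them, with a log2 ratio of 0.34 (SE 0.16, limma adjusted p = 0.323) that split into 0.078 and 0.60 in the 2 sets of arrays and was 0.10 with that covariate. Ebp, the sterol isomerase, had signals of 808, 766, 850.3 and 967 with dexamethasone and 632, 712, 855 and 709 in control. Its log2 ratio was 0.23 (SE 0.13, limma adjusted p = 0.428) and 0.35 with that covariate, and only dexamethasone replicate 4 was above every control. Dhcr7, which carries out the final reduction to cholesterol in one of the routes, Nsdhl and Hsd17b7, which act on the methylated sterols, had log2 ratios of 0.14, 0.15 and 0.043 (limma adjusted p = 0.604, 0.796 and 0.936).

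Seen by array, the sterol branch stood highest on 1 culture. Dexamethasone replicate 4 had the highest signal of the 8 arrays for 10 of the 20 sterol genes, while it was the highest for 9.3% of all probe sets tested, and it was above the gene's own mean for 18 of the 20. Dexamethasone replicates 1, 2 and 3 were above the own mean for 11, 15 and 10 of the 20 genes, and control replicates 1 to 4 for 7, 13, 9 and 5. The share of all probe sets above their own mean on each array was not counted here. The median deviation of the sterol genes from their own mean was 0.24 on the log2 scale on dexamethasone replicate 4 and 0.039, 0.099 and -0.0030 on replicates 1 to 3. It was -0.12, 0.030, -0.093 and -0.11 on the control arrays, so that dexamethasone replicate 3 and control replicate 2 overlapped. Control replicate 3 was the lowest array for 8 of the 20 genes, against 21.7% of all probe sets. The members vary together on an array and are not replicates of the treatment. Markers of proliferating cells lay below 0 in 10 of 10 genes tested (median log2 ratio -0.43), while 45.9% of all probe sets lay above 0. Top2a fell (limma adjusted p = 0.0488), as did 0.81% of all probe sets. An unadjusted p under 0.05 (limma) was reached by 6 of the 10, all lower, against 8.16% of all probe sets. In 3 of the 10 every dexamethasone array was below every control, against 5.46%. The summed signals of these markers were 7534 to 10910 with dexamethasone and 9920 to 12330 in control. Their part in the sterol values was not tested.

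**Figure D3:**
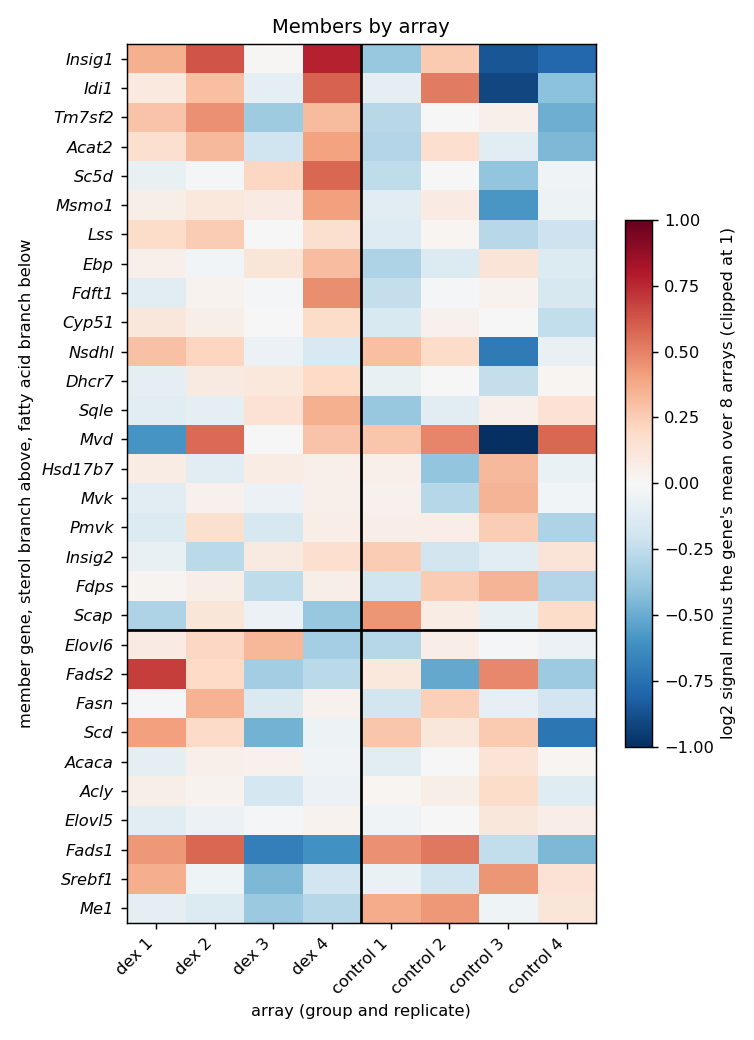
Log2 signal of each member on each array minus the mean of that gene over the 8 arrays (colour, red above and blue below the mean, clipped at 1 in either direction), with dexamethasone arrays left of the line and control arrays right of it. The sterol branch is above the horizontal line and the fatty acid branch below it. Dexamethasone replicate 4 is above the own mean for 18 of 20 sterol genes but for 2 of 10 fatty acid genes.

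The fatty acid branch showed no shared direction. Acaca, acetyl-CoA carboxylase, which commits carbon to fatty acids, had signals of 809, 889, 885 and 837 with dexamethasone and 794.5, 857, 943 and 874 in control. The dexamethasone arrays lay within the range of the controls, and the log2 ratio of -0.019 had a narrow interval (-0.25 to 0.21, limma adjusted p = 0.958). On the signals as deposited the Acaca value was 0.14, as was the median of all probe sets. Fasn, fatty acid synthase, had signals of 1737, 2228, 1584 and 1806 with dexamethasone and 1546, 2066, 1655 and 1538 in control. Replicate 2 was the highest in both groups, and the log2 ratio was 0.11 (95% interval -0.18 to 0.40, limma adjusted p = 0.741). Scd, the stearoyl-CoA desaturase, had signals of 272, 234, 148 and 199 with dexamethasone and 248, 222, 246 and 124 in control. Its groups overlapped, at 0.040 (95% interval -0.51 to 0.59, limma adjusted p = 0.964). Acly, which supplies acetyl-CoA from citrate, and Elovl5, an elongase of polyunsaturated fatty acids, had log2 ratios of -0.073 and -0.075 with intervals of -0.30 to 0.15 and -0.25 to 0.099. Elovl6, the elongase of palmitate, was at 0.14 (95% interval -0.21 to 0.49). At the strongest probe set in the main fit, the intervals of some members leave out a change of 1.3-fold in either direction. These are Acly, Acaca and Elovl5, and Mvk, Pmvk, Fdps and Insig2 of the sterol branch, and for the other members they do not. The intervals of the weaker probe sets tested of Acaca (-0.26 to 0.88) and Mvk (-0.28 to 0.75) do not leave it out.

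Fads1, the delta-5 desaturase, had signals of 1180 and 1300 on dexamethasone replicates 1 and 2 and of 545 and 574 on replicates 3 and 4. In control it had 1202 and 1261 on replicates 1 and 2 and 738 and 640.4 on replicates 3 and 4, so that it was lower on replicates 3 and 4 of both groups. The Fads1 log2 ratio was -0.14 (95% interval -0.82 to 0.53, limma adjusted p = 0.869). Fads2, the delta-6 desaturase, ranged from 225 to 462 with dexamethasone and from 201 to 399.8 in control. It had a log2 ratio of 0.14 (limma adjusted p = 0.848), made up of 0.65 in replicates 1 and 2 and -0.37 in replicates 3 and 4. The difference between these values had an unadjusted p = 0.0395 and an adjusted p = 0.787 for the interaction (limma).

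Me1, the cytosolic malic enzyme, which makes NADPH for fatty acid synthesis, was the only member whose groups did not overlap. Its signal was 408, 397, 338 and 359 with dexamethasone and 565, 589, 425 and 476 in control. Every dexamethasone culture was below every control, as for 5.46% of all probe sets tested. The two-sided exact permutation test gave p = 0.0286 for Me1 and can give no smaller one. No member had every dexamethasone array above every control, as 5.57% of all probe sets did. The Me1 mean was 375.5 ± 32.5 with dexamethasone and 514 ± 76.7 in control (SD, n = 4 each), with a log2 ratio of -0.44 (SE 0.14, 95% interval -0.75 to -0.14). It did not pass the test across all probe sets (limma adjusted p = 0.128). Replicates 1 and 2 gave Me1 a difference of -0.52, replicates 3 and 4 one of -0.37. With the 2 sets of arrays as a block it passed (limma adjusted p = 0.0339), and with the beta-actin ratio as a covariate it was -0.67 (adjusted p = 0.158). With the block and that ratio together Me1 was at -0.57 and did not pass (limma adjusted p = 0.0694).

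**Figure D4:**
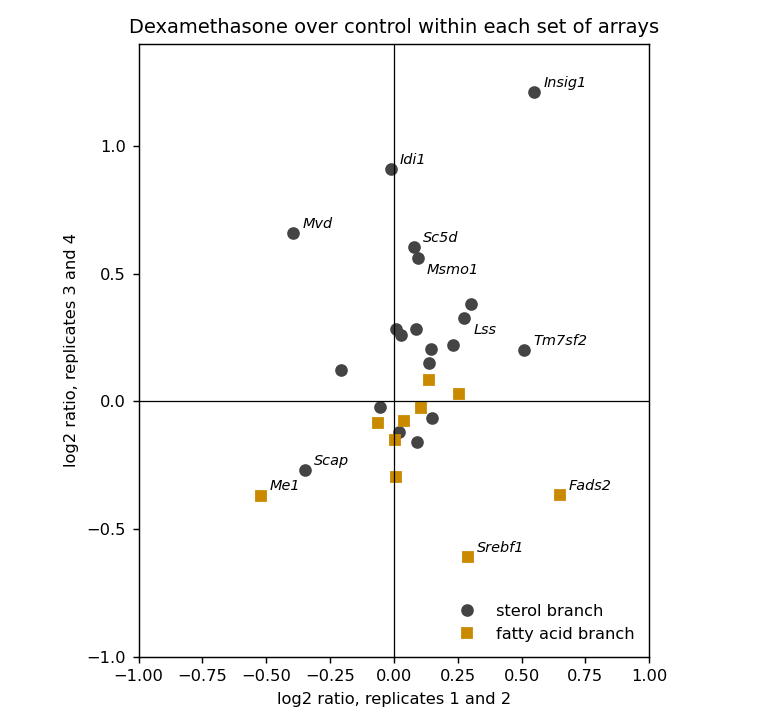
Log2 ratio (dexamethasone over control) of each member within replicates 1 and 2 (horizontal) and within replicates 3 and 4 (vertical), each with 2 arrays per group. Circles are sterol genes and squares fatty acid genes. Of the sterol genes 12 of 20 lie above 0 on both axes, of the fatty acid genes 2 of 10.

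The sterol branch had a median above 0 in both sets of arrays and the fatty acid branch in 1. Replicates 1 and 2 gave a sterol median of 0.090, replicates 3 and 4 one of 0.24, with 15 of 20 genes above 0 in each and 12 of 20 in both, against 27.5% of all probe sets above 0 in both. For the fatty acid branch it was 0.073 in the first of these sets and -0.12 in the other, with 2 of 10 above 0 in both and 2 of 10 below 0 in both, against 34% of all probe sets below 0 in both. The medians over all probe sets tested were -0.0029 and -0.049 in the 2 sets. Each set has 2 arrays per group, and the difference between the branches was not tested.

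Of the 10 members with more than 1 probe set past the filter, 7 had the same sign at each and 3, Mvk, Fdft1 and Acaca, had opposite signs. Of these 3, the weaker probe set tested was above the silent level on no array for Acaca, on 2 for Mvk and on all 8 for Fdft1. For Idi1 the weaker probe set had a log2 ratio of 0.48 (limma adjusted p = 0.252), for Cyp51 0.38 (adjusted p = 0.259) and for Me1 -0.23 (adjusted p = 0.425). The weaker Fdft1 probe set was at -0.21 (limma adjusted p = 0.461). None of the further probe sets of the members passed the test.

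Other genes of lipid metabolism did not pass the test either. They were listed as neighbours of the pathway, such as acyl-CoA synthetases, sterol transport proteins, SREBP proteases and glyceride-forming enzymes, and 42 of the 50 with a probe set passed the filter. Of these 42, 0 passed the test and 4 had an unadjusted p under 0.05, all lower with dexamethasone, against 8.16% of all probe sets lower at that level, with a median log2 ratio of -0.032 over the list. The 4 are named after their values were seen. Mbtps1, the Golgi protease that makes the first cut in the SREBP precursors, had signals of 962, 991, 847 and 762 with dexamethasone and 1222, 1041, 1156 and 1075 in control. Every dexamethasone culture was below every control, at a log2 ratio of -0.34 (limma adjusted p = 0.172). The groups of 2 of the 42 genes did not overlap in this direction, against 5.46% of all probe sets. The other was Hsd17b12, an enzyme of fatty acid elongation, with 3064 to 3384 with dexamethasone and 3534 to 4148 in control (log2 ratio -0.26, limma adjusted p = 0.156). Plin2, a coat protein of lipid droplets, and Pdss2, of the isoprenoid chain of coenzyme Q, were at -0.47 and -0.48 (limma adjusted p = 0.189 and 0.299) with overlapping groups.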

How the data were processed

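RNA of 4 dexamethasone and 4 control cultures was amplified over 2 cycles, labelled and hybridized by the authors to Affymetrix rat RAE 230A arrays, and the deposited values are signal intensities per probe set on a linear scale, computed per array by the manufacturer's software. Their fold changes came from signal log ratios between arrays, with a limit of 1.3 and no test across samples. Here each array was rescaled to a trimmed mean of 500 (2% at either end), signals under 16 were set to 16, and log2 signals were tested with limma 3.58.1 in R 4.3.3 (lmFit, eBayes with trend, two-sided) over the 10368 probe sets with a mean of at least 100, out of 15866 that are not controls, with Benjamini-Hochberg adjustment and a threshold of 0.05. Single genes were also given an exact permutation test of 4 arrays against 4, and the number of arrays limits the precision. The gene names came from the platform annotation, with 12783 probe sets of 1 symbol, 312 of several and 2771 of none, and a gene was taken at its strongest probe set. Promoter windows were read from a RefSeq table (build GRCr8), and positions of the probe sets are not given.

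The members and all lists were chosen with earlier results of these data known. Values on every array were given for the members past the test with or without the array set block, the regulators, Sqle, Acaca, Fasn and Scd, and the 8 further members of smallest p, and for Fads1, chosen after its values were seen. The rule also named Hmgcs1, which was not analysed here. The scripts were tested on simulated data. Alternatives were other scalings, floors and filters, other variance models, blocks, the beta-actin ratio, the mean of a gene's probe sets, each set of 2 replicates and leaving out each array. The block of the 2 array sets with the beta-actin ratio, and that block without control replicate 3, were added after seeing the data.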

Additional observations from a re-analysis of the deposited data

Results flagged for a closer look

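In 5 of the 60 sets of 4 arrays examined (30 genes in each group), 1 array lay far from the other 3, by a gap that filled most of the group's log2 range (Dixon's test, 95% level), and chance gives about 1 in 20. With dexamethasone, Msmo1 was highest on replicate 4 (signal 2896, gap 0.851 of the range), Fdps was lowest on replicate 3 (2474, 0.872) and Hsd17b7 was lowest on replicate 2 (196, 0.897). In control, Mvd was lowest on replicate 3 (52.2, 0.862) and Scd was lowest on replicate 4 (124, 0.838). The silent level of the same arrays was 162 for Hsd17b7, 193 for Mvd and 121 for Scd, so that the Mvd value was below it and the Scd value just above it. The cause was not tested for any of the 5.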

How the results depend on the processing

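Of the 279 probe sets changed, counts were 36 on the signals as deposited, 102 with no filter, 65 with the beta-actin ratio as covariate, 440 in replicates 1 and 2 alone, 21 in replicates 3 and 4 alone, and 180 to 275 leaving out 1 array. With blocks they were 578 for the array sets, 779 for these without control replicate 3 and 484 for the replicate number. The labels do not say whether same-numbered cultures were paired, and the numbers were not taken as pairs. Same-numbered cultures did not all deviate together (r = 0.352, 0.252, 0.0347 and 0.406), and dexamethasone replicate 2 correlated best with control replicate 1. Dexamethasone replicate 3 likewise correlated with control replicate 4 (r = 0.430), of the same set of arrays, so these values cannot decide on pairing. With the replicate block, Insig1 passed (adjusted p = 0.0265 from limma) and Me1 did not (0.0598).

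The count of sterol members changed, 0, was 1 (Insig1) with the replicate block, the array set block and that block without control replicate 3, and 0 to 1 leaving out 1 array (1 without control replicate 2). That of fatty acid members, 0, was 1 (Me1) with the array set block, also without control replicate 3, and 0 leaving out 1 array. That of other pathway genes, 0, was 1 with the replicate block (Plin2) and in replicates 1 and 2 alone (Mylip), and 0 to 1 leaving out 1 array (Plin2, without control replicate 4). The sterol median was 0.32 on the signals as deposited, where the median of all probe sets was 0.14. It was 0.041 with the array set block and beta-actin ratio together, and 0.12 to 0.23 leaving out 1 array. The fatty acid median was 0.12 on the signals as deposited and -0.095 to 0.015 leaving out 1 array.

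Signs turned for Insig2 (0.12 as deposited, 0.12 in replicates 3 and 4, up to 0.040 leaving out 1 array, from -0.11), Srebf1 (0.0027 as deposited, 0.29 in replicates 1 and 2, 0.13 with the beta-actin ratio, 0.22 with the block too), Acaca (0.14 as deposited, 0.039 in replicates 1 and 2, 0.073 with the beta-actin ratio, 0.053 with the block too, 0.015 with the block without control replicate 3, 0.15 as the mean of its probe sets, -0.060 to 0.023 leaving out 1 array) and Scd (-0.026 in replicates 3 and 4, -0.19 to 0.20 leaving out 1 array). With the beta-actin ratio Fasn was at -0.019, Msmo1 at -0.044 (-0.099 with the block too) and Idi1 at -0.28 (-0.24 with the block too, -0.013 in replicates 1 and 2), and Sc5d was at -0.055 with the block and the ratio. Leaving out 1 array moved Idi1, Sqle and Msmo1 by the values given with them, Srebf1 from -0.16 to -0.040 (without control replicate 3), -0.038 (without dexamethasone replicate 3), -0.25 (without control replicate 2) and -0.31 (without dexamethasone replicate 1), Sc5d from 0.34 to 0.21 (without dexamethasone replicate 4) and Fasn from 0.11 to 0.015 (without dexamethasone replicate 2), 0.21 (without control replicate 2), 0.066 (without control replicate 4), 0.069 (without control replicate 1) and 0.18 (without dexamethasone replicate 3). On the signals as deposited the median of all probe sets was 0.14, a shift of 0.163 from the main fit. The values as deposited carry this shift of all probe sets. The cause of the other changes was not tested. Insig1, Lss, Acat2, Tm7sf2, Cyp51, Ebp, Sqle, Scap and Me1 kept their sign under each alternative. With 4 arrays a group, small differences may go undetected. The intervals given are not adjusted over all probe sets, and those of Insig1, Lss, Msmo1 and Me1 left out 0 though none passed the test. They therefore do not mark the smallest difference that the test could find.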
